A study of Mus musculus with 6 samples.

Results

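Genomic imprinting marks a gene by the parent it came from, so that 1 parental copy is used and the other is silenced. A group of imprinted genes that act on fetal and early postnatal growth is known for high expression before birth and for a fall in many organs, the heart included, as growth slows after birth. Their products act at several steps, among them the growth factor *Igf2*, the cell cycle inhibitor *Cdkn1c*, the receptor adaptor *Grb10*, the zinc finger proteins *Peg3* and *Plagl1*, and long noncoding RNAs such as *H19* and *Meg3*. The members described here are 10 of these genes, taken by symbol from the 54532 genes of the count table: *Meg3*, *Rian*, *Mirg*, *Dlk1*, *H19*, *Igf2*, *Cdkn1c*, *Peg3*, *Plagl1* and *Grb10*. All 10 were in the table. The libraries carry no information on the parental copy, so every value below is the sum of both copies.

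The hearts came from wildtype ICR mice that received 1 of 3 AAV9 viruses under the skin at P6 (postnatal day 6), at 1e+11 viral genomes, and were collected at P9. The viruses carried GFP, YAP6SA or YAP5SA, each driven by the cTnT promoter, which directs expression to cardiomyocytes (CMs). YAP is the transcriptional coactivator that the Hippo pathway restrains by phosphorylation. In YAP5SA the serines that the Hippo kinases phosphorylate are alanines, which leaves YAP active, and YAP6SA carries 1 further serine-to-alanine change, in the part of the protein that binds the TEAD DNA-binding factors. CM nuclei were drawn from the hearts with an antibody to PCM-1, and their poly-A RNA was sequenced without strand information. The labels give 2 hearts for each virus. Each of the 3 groups had 2 libraries, 1 in each of 2 batches, so all groups share strain, route, dose and age and differ in the cargo of the virus, and both variants are forced expression on top of the mouse's own YAP.

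The libraries held 14552847 to 19615627 gene counts. The replicates in a group differed far more than counting noise would make them, by a chi-square of 19 to 29.9 for each degree of freedom, so none was a copy of the other. All 8 CM markers were present in every library, with *Tnnt2*, the cardiac troponin T gene, at 10670 to 21160 CPM (counts scaled to library size, with TMM factors) and *Pcm1* at 53.0 to 74.7 CPM. The batches also differed in sex make-up. *Xist* had 0 to 8 counts in the 3 libraries of batch 1 and 9350 to 10550 in those of batch 2, while 4 Y-linked genes summed to 13051 to 16563 counts in batch 1 and 6760 to 8156 in batch 2, so that each batch 2 library held reads of both. The labels do not say whether hearts were pooled, and mixing of hearts in these libraries was not tested. Batch and sex make-up therefore cannot be told apart, and within-batch values are given beside the pooled ones.

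In YAP5SA OE CMs, 5 of the 8 members that could be tested were higher than in GFP and 0 were lower. They were the zinc finger genes *Peg3* (3.33-fold) and *Plagl1* (2.54-fold) and the 3 noncoding RNAs of the *Dlk1*-*Dio3* locus, *Mirg* (3.14-fold), *Rian* (2.46-fold) and *Meg3* (2.05-fold). These 3 RNAs lie at 1 locus, yet they count as 3 members in the counts and medians given here. *H19*, *Cdkn1c* and *Grb10* did not pass the test. In YAP6SA OE CMs none of the 8 differed from GFP. The tests were made with edgeR's quasi-likelihood method on 13323 genes, those with a median log2 CPM above 1 in at least 1 group, and a call is an FDR (Benjamini-Hochberg adjusted p) under 0.05. *Igf2* and *Dlk1* fell below that level in all groups, and the other 8 were above it in GFP already. Among all genes tested, 22% were called between YAP5SA and GFP, 12.8% as higher and 9.18% as lower, and the median log2 fold change was -0.0031, against 1.17 over the 8 members. The members and the lists below were chosen with earlier results of these data known. Their shares and medians therefore describe the lists and are no test of them. Between YAP6SA and GFP, 0.045% of the genes were called (6 genes), and 2.07% (276 genes) in a fit of those 4 libraries alone, again with 0 members. The libraries are bulk, so a larger share of nuclei with a transcript and more of it per nucleus cannot be told apart.

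**Figure D1:**
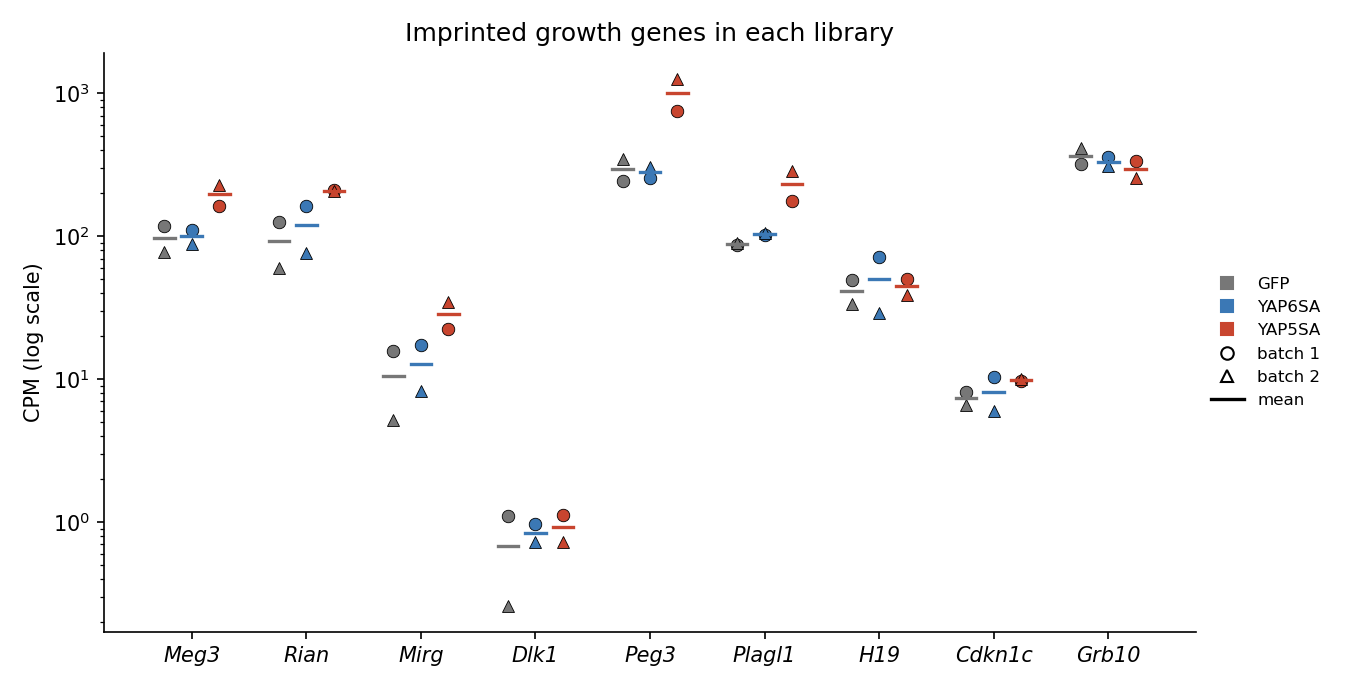
Expression of 9 imprinted growth genes in CPM on a log scale, with 1 point per library, coloured by group and shaped by batch, and a bar at the mean of the 2 libraries of a group. Both YAP5SA libraries lie above all 4 other libraries for Peg3, Plagl1, Meg3, Rian and Mirg, whereas the groups overlap for H19, Grb10 and Dlk1. The share of all genes with such a separation was not counted. Igf2, with 0 to 5 counts per library, is not drawn.

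*Peg3* (ENSMUSG00000002265, chr7:6703892-6730431, minus strand, GRCm38) encodes a large zinc finger protein and is expressed from the paternal copy. In GFP it had 4666 counts in batch 1 and 5332 in batch 2, in YAP6SA 4992 and 5067, and in YAP5SA 11339 and 22384. In CPM these are 245 and 348 for GFP, 254 and 307 for YAP6SA, and 751 and 1255 for YAP5SA. The GFP and YAP6SA libraries were intermingled, and both YAP5SA libraries lay well above the highest of them. The mean rose from 297 ± 72.7 CPM in GFP to 1003 ± 356 in YAP5SA OE CMs (SD, n = 2 in each group), a log2 fold change of 1.74 (standard error 0.18, edgeR quasi-likelihood FDR 0.000427). Within the batches the log2 difference was 1.61 and 1.85. Against YAP6SA the log2 fold change was 1.80 (FDR 0.000449), and between YAP6SA and GFP it was -0.06 (FDR 0.971). The call for *Peg3* against GFP and against YAP6SA held with every library left out in turn.

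*Plagl1* (ENSMUSG00000019817, chr10:13060504-13131694, plus strand), a zinc finger transcription factor of the PLAG family that can arrest the cell cycle, had 87.7 and 90.4 CPM in GFP, 103 and 105 in YAP6SA, and 176 and 286 in YAP5SA. The 3 groups did not overlap. The YAP5SA libraries stood apart most, at a log2 fold change of 1.34 against GFP (standard error 0.19, edgeR FDR 0.00157) and 1.12 against YAP6SA (FDR 0.0048). The small gap between YAP6SA and GFP, 0.23 on the log2 scale in the fit and 0.23 and 0.22 within the batches, did not pass the test (FDR 0.909). The call against GFP held with each library left out, and the call against YAP6SA was lost without YAP6SA replicate 2 (log2 0.94, FDR 0.0904).

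Meg3, Rian and Mirg lie in this order on the plus strand of chromosome 12 and are transcribed from the maternal copy. *Meg3* (ENSMUSG00000021268, chr12:109541001-109571726) is a long noncoding RNA known as a growth suppressor, *Rian* (ENSMUSG00000097451, chr12:109603940-109661716) hosts small nucleolar RNAs, and *Mirg* (ENSMUSG00000097391, chr12:109729764-109749460) hosts microRNAs. *Meg3* had 118 and 77.6 CPM in GFP, 111 and 89.0 in YAP6SA, and 164 and 231 in YAP5SA. For *Rian* the values were 125 and 60.1 in GFP, 163 and 76.0 in YAP6SA, and 211 and 206 in YAP5SA. *Mirg* was the least abundant, at 15.8 and 5.22 CPM in GFP, 17.5 and 8.25 in YAP6SA, and 22.6 and 34.7 in YAP5SA. For all 3 RNAs both YAP5SA libraries were above every GFP and YAP6SA library, and in GFP and YAP6SA the batch 2 library was the lower one. How many of all genes show such a separation was not counted.

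The log2 fold change against GFP was 1.04 for *Meg3* (standard error 0.23, edgeR FDR 0.0128), 1.30 for *Rian* (standard error 0.24, FDR 0.00587) and 1.65 for *Mirg* (standard error 0.44, FDR 0.0257). Against YAP6SA, *Meg3* (log2 1.00, FDR 0.0192) and *Rian* (log2 0.94, FDR 0.0293) were higher, and *Mirg* had 1.32 (FDR 0.068), which did not pass. The rise of the 3 RNAs was smaller in batch 1 than in batch 2, at log2 differences of 0.47 and 1.57 for *Meg3*, 0.75 and 1.78 for *Rian*, and 0.52 and 2.71 for *Mirg*.  Without GFP replicate 2 all 3 calls were lost, at 0.69 for *Meg3* (FDR 0.191), 1.04 for *Rian* (FDR 0.0693) and 0.99 for *Mirg* (FDR 0.254). Without the batch term, *Rian* (FDR 0.0645) and *Mirg* (FDR 0.0799) were not called either, and without YAP5SA replicate 2 *Mirg* was not called (log2 0.64, FDR 0.139). The *Meg3* and *Rian* calls against YAP6SA were lost without YAP6SA replicate 2 and without YAP5SA replicate 2, and the *Rian* one also without the batch term (log2 0.81, FDR 0.209).

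Within a library the 3 RNAs did not keep 1 ratio. Per 100 *Meg3* counts there were 106 *Rian* counts in GFP of batch 1 and 77.5 in GFP of batch 2, 147 and 85.4 in YAP6SA, and 129 and 89.5 in YAP5SA. The ratio was thus lower in batch 2 in each group. *Mirg* had 13.4 and 6.73 counts per 100 *Meg3* counts in GFP, 15.8 and 9.26 in YAP6SA, and 13.8 and 15.1 in YAP5SA, where the batch 2 library was not the lower one. These are ratios of counts, not of molecules, since the annotated exons of *Meg3*, *Rian* and *Mirg* differ in length (18089, 18234 and 7292 bases).

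**Figure D2:**
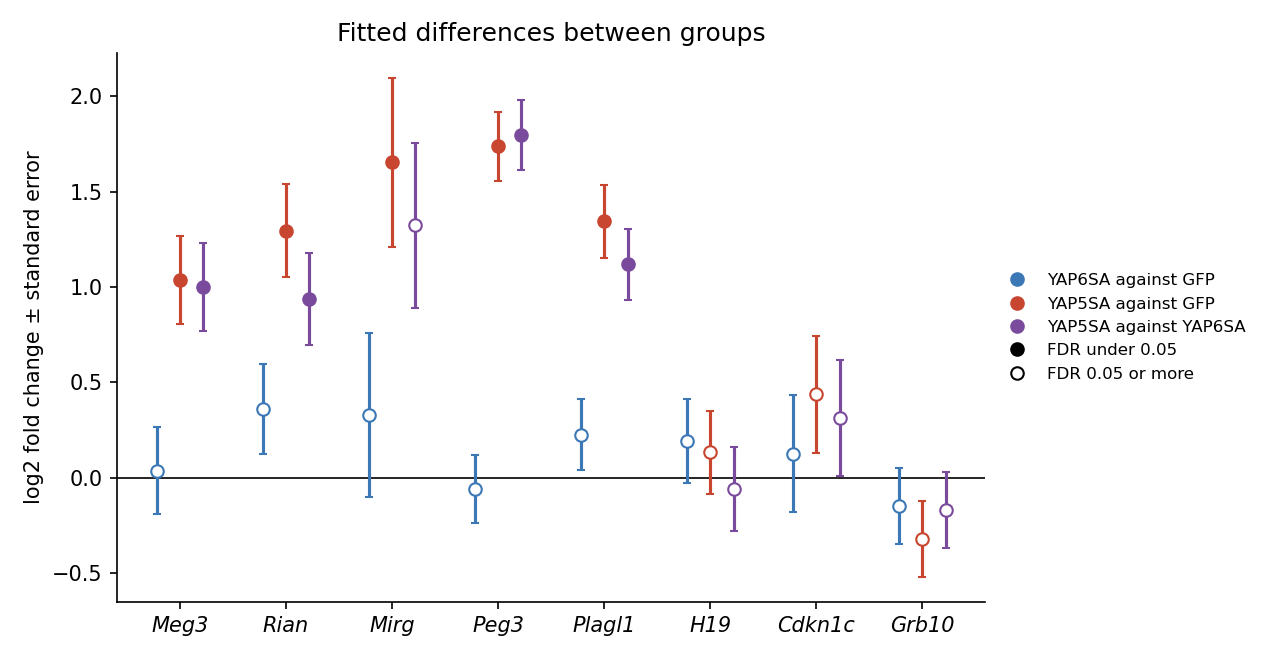
Fitted log2 fold changes with standard errors for the 8 members that passed the filter, in YAP6SA against GFP, YAP5SA against GFP and YAP5SA against YAP6SA. Filled points have an FDR under 0.05. Filled points appear for Meg3, Rian, Mirg, Peg3 and Plagl1 in YAP5SA against GFP, and for the same genes except Mirg against YAP6SA. All YAP6SA against GFP points are open and lie between -0.15 and 0.36.

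Promoters of 4 of the 5 called genes are shown, since these genes were higher in the same group. RefSeq promoters (GRCm38.p6, 250 bases before to 50 after the start) were matched for 8 of the 10 members (all but *H19* and *Cdkn1c*), with 13 entries. The letters GGAATG, the core that TEAD factors are known to bind, and TGACGTCA, the palindromic cAMP response element, were searched on both strands, and the second was chosen after the sequences were seen. Matches are in capitals.
Peg3, chr7:6730370-6730669, minus strand: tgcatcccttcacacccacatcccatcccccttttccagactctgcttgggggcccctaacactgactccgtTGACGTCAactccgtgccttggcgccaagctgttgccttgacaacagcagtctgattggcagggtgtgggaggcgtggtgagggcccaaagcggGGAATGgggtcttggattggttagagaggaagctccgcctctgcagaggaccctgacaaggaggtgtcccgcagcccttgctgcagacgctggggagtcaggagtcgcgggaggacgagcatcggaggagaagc
Rian, chr12:109603695-109603994, plus strand: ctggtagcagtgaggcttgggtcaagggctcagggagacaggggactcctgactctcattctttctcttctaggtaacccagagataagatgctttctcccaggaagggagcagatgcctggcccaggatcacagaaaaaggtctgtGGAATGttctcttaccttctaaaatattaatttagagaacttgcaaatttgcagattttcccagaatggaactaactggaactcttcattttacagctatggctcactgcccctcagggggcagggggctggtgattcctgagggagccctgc
Meg3, first entry, chr12:109540746-109541045, plus strand: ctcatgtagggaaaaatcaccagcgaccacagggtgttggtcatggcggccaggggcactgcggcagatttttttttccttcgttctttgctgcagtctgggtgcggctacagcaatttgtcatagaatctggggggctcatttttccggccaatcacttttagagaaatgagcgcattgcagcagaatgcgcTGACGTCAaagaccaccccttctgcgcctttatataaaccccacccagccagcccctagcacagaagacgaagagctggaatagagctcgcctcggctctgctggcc
Plagl1, chr10:13090582-13090881, plus strand: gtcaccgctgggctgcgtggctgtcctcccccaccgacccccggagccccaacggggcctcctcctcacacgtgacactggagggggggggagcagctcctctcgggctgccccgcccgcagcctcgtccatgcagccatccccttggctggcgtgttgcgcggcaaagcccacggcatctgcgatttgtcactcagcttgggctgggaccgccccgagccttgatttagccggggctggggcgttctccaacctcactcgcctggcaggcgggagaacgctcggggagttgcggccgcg
*Peg3* held 1 copy of each motif, at positions -84 (TEAD core) and -178 (cAMP response element) from the start. *Rian* held 1 TEAD core, at -103, and the first *Meg3* entry 1 cAMP response element, at -57. The second *Meg3* entry, *Mirg* and *Plagl1* held neither. The *Mirg* entry (chr12:109734731-109735030) and the *Plagl1* entry lie inside the annotated genes, so the annotated starts of these genes were not searched. Of all 32851 promoters of the same length, 14.7% held the TEAD core and 1.79% the cAMP response element. Among the other members with an entry, 3 of the 4 *Igf2* entries held the TEAD core, and *Dlk1* and the *Grb10* entries held neither motif. The *Grb10* entries too lie inside the annotated gene. Of these members *Grb10* was tested and not called, while *Igf2* and *Dlk1* were below the filter. These are matches of letters and not measured binding.

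The microRNAs that this locus encodes were not measured. The span from the start of *Meg3* to the end of *Mirg*, 208 kb, contains 60 microRNA rows of the count table, of which 3 had any count and which summed to 4 counts over all 6 libraries. RefSeq places 57 hairpins there, 14 of them inside *Mirg*, 3 inside *Rian* and 1 inside *Meg3*. They give 111 mature names with 102 different seeds (bases 2 to 8), and 9 seeds were shared, each by a pair of microRNAs. A few are shown with the seed in capitals, as examples of what the *Mirg* and *Meg3* to *Mirg* transcripts can host, together with the microRNA inside *H19*. The miR-134-5p and miR-410-3p sequences lie in *Mirg*, and miR-379-5p and miR-1193-5p, between *Rian* and *Mirg*, have the same seed.
miR-134-5p: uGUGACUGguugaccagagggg
miR-410-3p: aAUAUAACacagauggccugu
miR-379-5p: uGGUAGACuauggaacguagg
miR-1193-5p: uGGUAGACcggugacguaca
miR-675-5p: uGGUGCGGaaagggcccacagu

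*Dlk1* (ENSMUSG00000040856, chr12:109452823-109463336, plus strand), the paternally expressed transmembrane protein at the same locus that inhibits adipocyte differentiation, was near the lower limit of what the depth can measure. It had 21 and 4 counts in GFP, 19 and 12 in YAP6SA, and 17 and 13 in YAP5SA, which is 0.683 ± 0.60, 0.847 ± 0.17 and 0.927 ± 0.28 CPM (SD, n = 2). The groups overlapped. In a fit without the filter its log2 fold change was 0.58 in YAP5SA against GFP (standard error 0.91, edgeR FDR 0.886), so a change of the size seen for *Meg3* was not detectable at this depth. Of the locus' other paternal genes, *Rtl1*, which encodes a retrotransposon-derived protein, had 16 and 11 counts in GFP, 23 and 9 in YAP6SA, and 4 and 0 in YAP5SA, and *Dio3*, a thyroid hormone deiodinase, had 0 in all 6. Both were below the filter.

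*H19* and *Igf2* lie side by side on chromosome 7 and share enhancers, with *H19* expressed from the maternal and *Igf2* from the paternal copy. *H19* (ENSMUSG00000000031, chr7:142575529-142578143, minus strand), a long noncoding RNA with miR-675 in an exon, had 49.2 and 33.9 CPM in GFP, 71.3 and 29.2 in YAP6SA, and 50.5 and 39.1 in YAP5SA. The groups overlapped, and the widest range was within YAP6SA. The log2 fold change was 0.13 in YAP5SA against GFP (standard error 0.22, edgeR FDR 0.704) and 0.19 in YAP6SA against GFP (standard error 0.22, FDR 0.929). The batch 1 library was the higher one in each group, as it was for *Rian* and for the summed fibroblast and endothelial markers given further on.

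*Igf2* (ENSMUSG00000048583, chr7:142650766-142666816, minus strand), the insulin-like growth factor of fetal growth, had 2 and 0 counts in GFP, 0 and 0 in YAP6SA, and 5 and 0 in YAP5SA. These counts are not a measure of its level. Of its 5723 annotated exon bases, 62.8% also belong to an overlapping gene of the same strand, Gm49394, as do 546 of its 678 coding bases, and Gm49394 itself had 0 counts. Reads that matched 2 genes were put in the table's ambiguous class, which held 5.79% to 6.31% of the reads of a library, so that reads in the shared bases could reach neither gene. The same applies in part to *Cdkn1c*, in which 30.7% of the exon bases overlap Gm44732 on the other strand, and counting did not use strand.

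*Cdkn1c* (ENSMUSG00000037664, chr7:143458339-143461050, minus strand) encodes p57, an inhibitor of cyclin-dependent kinases expressed from the maternal copy. Its values were 8.10 and 6.66 CPM in GFP, 10.3 and 6.0 in YAP6SA, and 9.74 and 9.98 in YAP5SA. Both YAP5SA libraries were above both GFP libraries and within the range of YAP6SA. The log2 fold change against GFP was 0.44 (standard error 0.31, edgeR FDR 0.338), which did not pass, and against YAP6SA it was 0.31 (FDR 0.533).

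*Grb10* (ENSMUSG00000020176, chr11:11930508-12038683, minus strand) encodes an adaptor that binds the insulin and IGF1 receptors and dampens their signal. It had 321 and 414 CPM in GFP, 356 and 310 in YAP6SA, and 338 and 254 in YAP5SA. The groups overlapped, and in batch 2 the order was GFP, YAP6SA, YAP5SA. Its log2 fold change in YAP5SA against GFP was -0.32 (standard error 0.20, edgeR FDR 0.28), with 0.08 in batch 1 and -0.70 in batch 2. Without YAP5SA replicate 1 it was called as lower (log2 -0.56, FDR 0.0226), and without GFP replicate 2 the value was 0.02 (FDR 0.973), so that 1 library decides its direction.

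**Figure D3:**
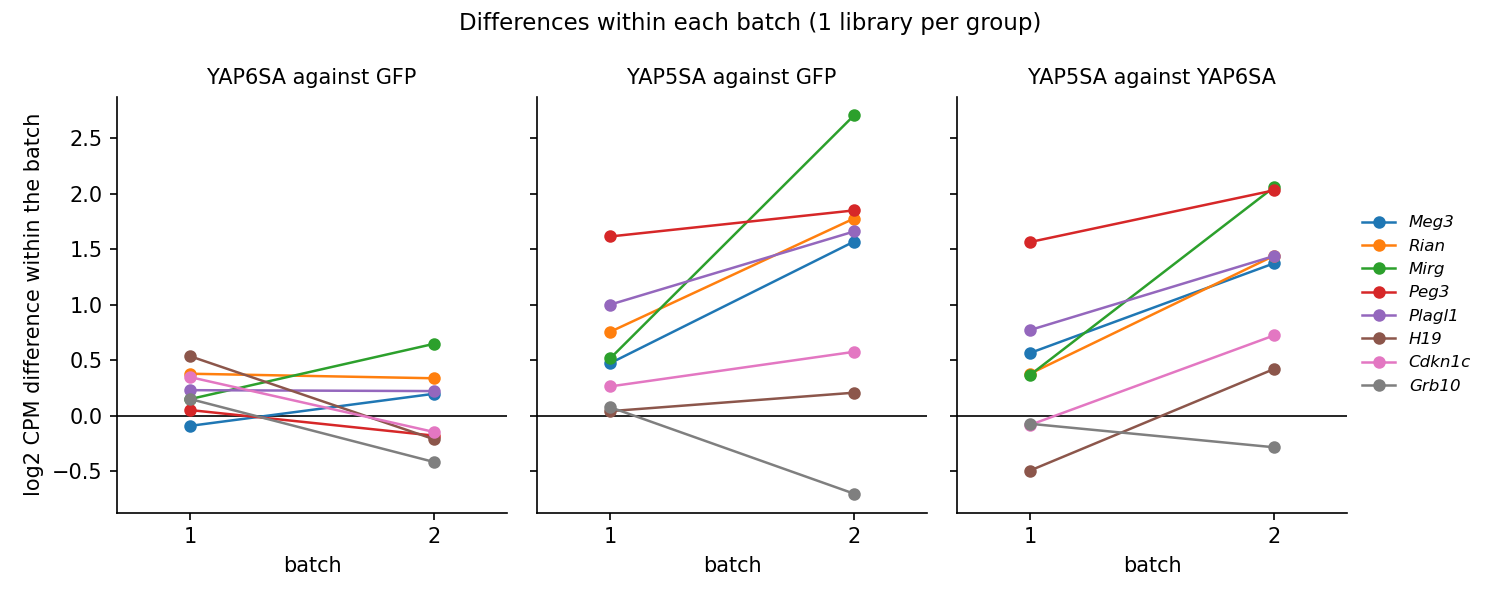
Difference in log2 CPM between the libraries of 1 batch, for batch 1 and batch 2, in each of the 3 comparisons, with a line for each of the 8 members that passed the filter. In YAP5SA against GFP the lines of Meg3, Rian, Mirg, Peg3 and Plagl1 are above 0 in both batches and higher in batch 2. Peg3 differs least between the batches among these, and Mirg most.

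All 5 members called in YAP5SA against GFP were higher in both batches, and for all 5 the difference was larger in batch 2. No member differed between batches in the fit over all groups, and 27 of all genes did (0.203%). The expression per length of exon placed *Grb10* first in GFP, at 40.4 ± 7.23 CPM per kb (SD, n = 2), followed by *Peg3* at 22.3 ± 5.46, *H19* at 16.9 ± 4.38, *Plagl1* at 11.4 ± 0.25, *Meg3* at 5.41 ± 1.58, *Rian* at 5.08 ± 2.52, *Cdkn1c* at 3.62 ± 0.50 over all its exon bases (its place is uncertain, since reads in the overlap with Gm44732 could be lost), *Mirg* at 1.44 ± 1.02 and *Dlk1* at 0.121 ± 0.11. The neighbours *Peg3* and *H19*, *Meg3* and *Rian*, and *Rian* and *Cdkn1c* overlapped in their library values and were not told apart. In YAP5SA OE CMs *Peg3* came first, at 75.3 ± 26.7 CPM per kb, and did not overlap *Grb10* at 32.6 ± 6.55, which in turn overlapped *Plagl1* at 29.5 ± 9.97. The exon lengths are those of all annotated isoforms together, and which isoform was used was not measured.

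YAP5SA and YAP6SA differ by 1 serine, and they were compared directly at the same dose and age. Of the 8 members tested, 4 were higher in YAP5SA (*Peg3*, *Plagl1*, *Meg3* and *Rian*) and 0 lower, where 14.7% of all genes were called, 9% as higher and 5.68% as lower. The median log2 difference of the members was 0.97, against -0.0125 over all genes. In this comparison *H19* had -0.06 (standard error 0.22), *Grb10* -0.17 (standard error 0.20) and *Cdkn1c* 0.31 (standard error 0.31), none past the threshold. Of the 8 members, 0 were called between YAP6SA and GFP and 0 had an unadjusted p under 0.05, with log2 fold changes between -0.15 and 0.36. Among all 13323 genes, 6 (0.045%) were called and 790 had an unadjusted p under 0.05, so 0 of 8 is not particular to the members. With *Meg3* at 0.04 (standard error 0.23) and *Peg3* at -0.06 (standard error 0.18), a p that misses the threshold leaves small changes in either direction possible. The 3 comparisons share libraries, and each is given for its own values.

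Other genes of these loci that are listed as imprinted were followed in the same fit. Whether each of them is imprinted in CMs was not tested. Of 17 in the table, 8 could be tested. In YAP5SA against GFP 4 of them were higher and 0 lower (12.8% and 9.18% of all genes tested). The 8 had a median log2 fold change of 0.55. *Zim1*, a maternally expressed zinc finger gene next to *Peg3*, had 5.84 and 5.22 CPM in GFP, 4.78 and 6.73 in YAP6SA, and 38.6 and 41.8 in YAP5SA. Its log2 fold change of 2.85 (standard error 0.25, edgeR FDR 0.000187) exceeded that of *Peg3*, and its counts per 100 *Peg3* counts went from 2.38 and 1.5 in GFP to 5.14 and 3.33 in YAP5SA. *Cobl*, an actin nucleator at the *Grb10* locus, had 11.7 and 13.5 CPM in GFP, 9.21 and 17.9 in YAP6SA, and 53.2 and 153 in YAP5SA (log2 2.84, standard error 0.28, FDR 0.000294). It thus rose at a locus where *Grb10* did not. The other genes called, *Tssc4* (log2 1.58, FDR 0.00393) and *Cd81*, which encodes a tetraspanin (log2 0.67, FDR 0.0191), lie between *Igf2* and *Cdkn1c*. The *Cd81* call was lost without the batch term, without GFP replicate 2 and without YAP5SA replicate 2. In YAP5SA against YAP6SA, *Zim1*, *Cobl* and *Tssc4* were called and *Cd81* was not (FDR 0.0648), and the *Tssc4* call was lost in 2 of 4 fits with a library left out.

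**Figure D4:**
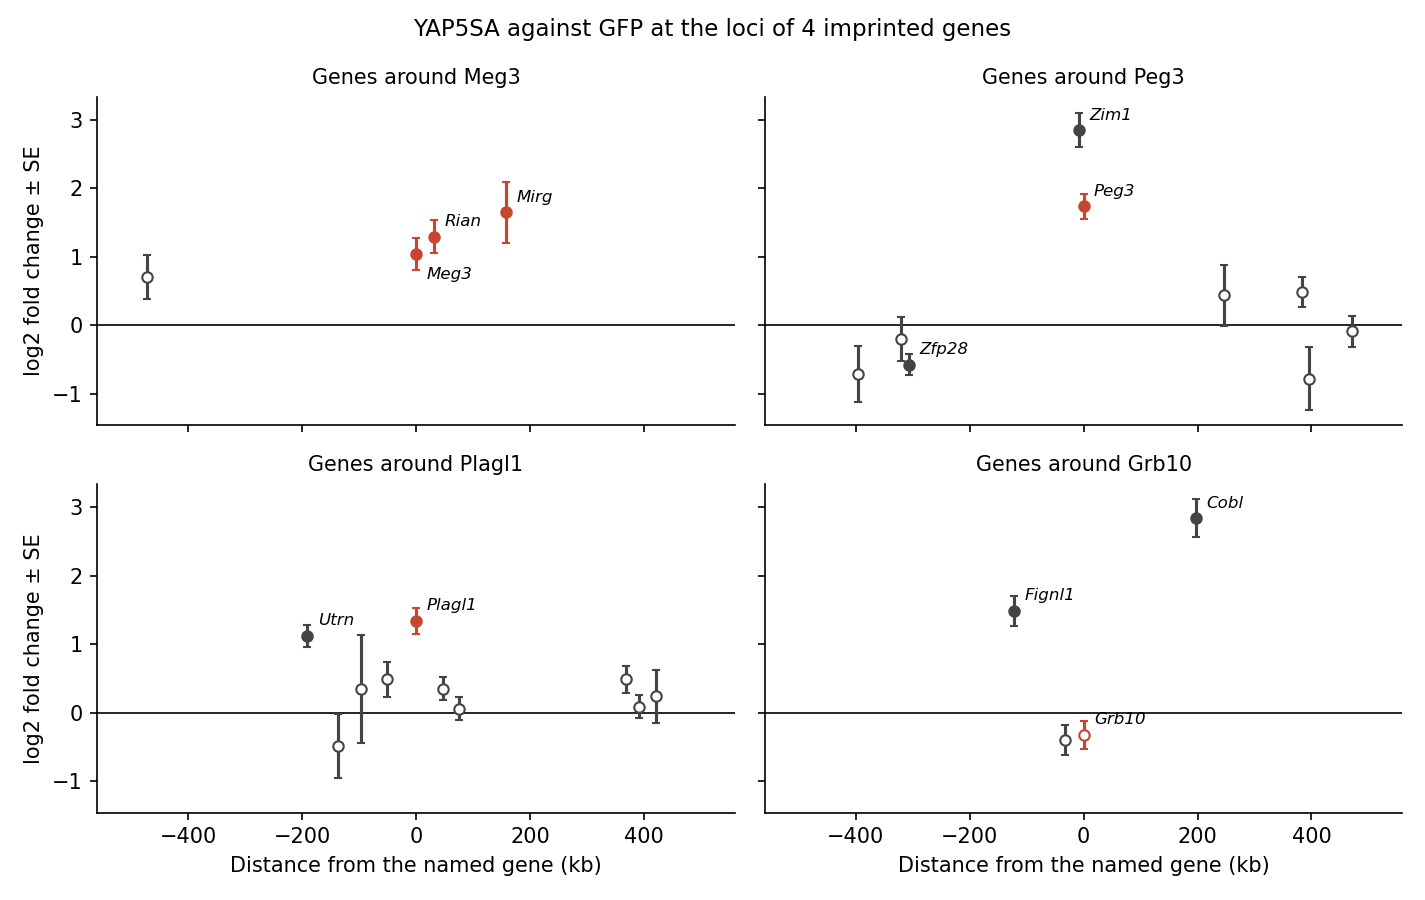
Log2 fold change (with standard error) in YAP5SA against GFP for each tested gene within 500 kb of Meg3, Peg3, Plagl1 or Grb10, by distance from the named gene in kb, with lower coordinates to the left. Members of the imprinted group are red and other genes grey, and filled points have an FDR under 0.05. Zim1 lies above Peg3 beside it, Utrn and Plagl1 are the filled points at the Plagl1 locus, and at the Grb10 locus Cobl and Fignl1 are filled while Grb10 is open and below 0.

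Within 500 kb of *Peg3*, 8 other genes were tested, of which *Zim1* was higher and *Zfp28* lower. Near *Plagl1* 1 of 9 was higher, *Utrn*, the gene of the dystrophin relative utrophin (log2 1.12, FDR 0.00186). Near *Grb10*, 2 of 3 were higher, *Cobl* and *Fignl1* (log2 1.49, FDR 0.00199), a gene of DNA repair. Around *Meg3* just 1 other gene was tested, *Begain*, at 0.70 (FDR 0.145). Around *H19*, 5 of 12 were higher, and around *Cdkn1c* 5 of 13 were higher and 1 lower, with 4 of the higher genes (*Tspan32*, *Cd81*, *Trpm5* and *Tssc4*) in both windows. These shares are to be read against the 12.8% and 9.18% of all genes called as higher and lower.

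The genes listed as imprinted at other loci had a median log2 fold change near that of all genes, and whether each is imprinted in CMs was not tested. The list includes *Xist*, whose counts followed the sex make-up of the batches. Among the 40 counted, 28 could be tested, and in YAP5SA against GFP 0 were higher and 1 was lower, with a median log2 fold change of -0.04. Of all genes tested, 12.8% were higher and 9.18% lower, with a median of -0.0031. The gene called was *Ube3a*, a ubiquitin ligase gene, at -0.57 (edgeR FDR 0.0462), a call that was lost in 5 of 9 alternatives and without any 1 of the 4 libraries. By edgeR's likelihood ratio test 2 were higher and 3 lower, and by DESeq2 0 and 0, fits whose share of all genes is not given here. Of the 28, 10 had an unadjusted p under 0.05, as did 4852 of all 13323 genes. Without YAP5SA replicate 1 more of the list were called in each direction, and the number of all genes called also moved with a library left out. *Ndn*, a paternally expressed growth suppressor, had 0.95 (FDR 0.101), *Mest*, often grouped with the growth genes, -0.38 (FDR 0.28), and *Igf2r*, the receptor that clears IGF2, -0.03 (FDR 0.918).

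**Figure D5:**
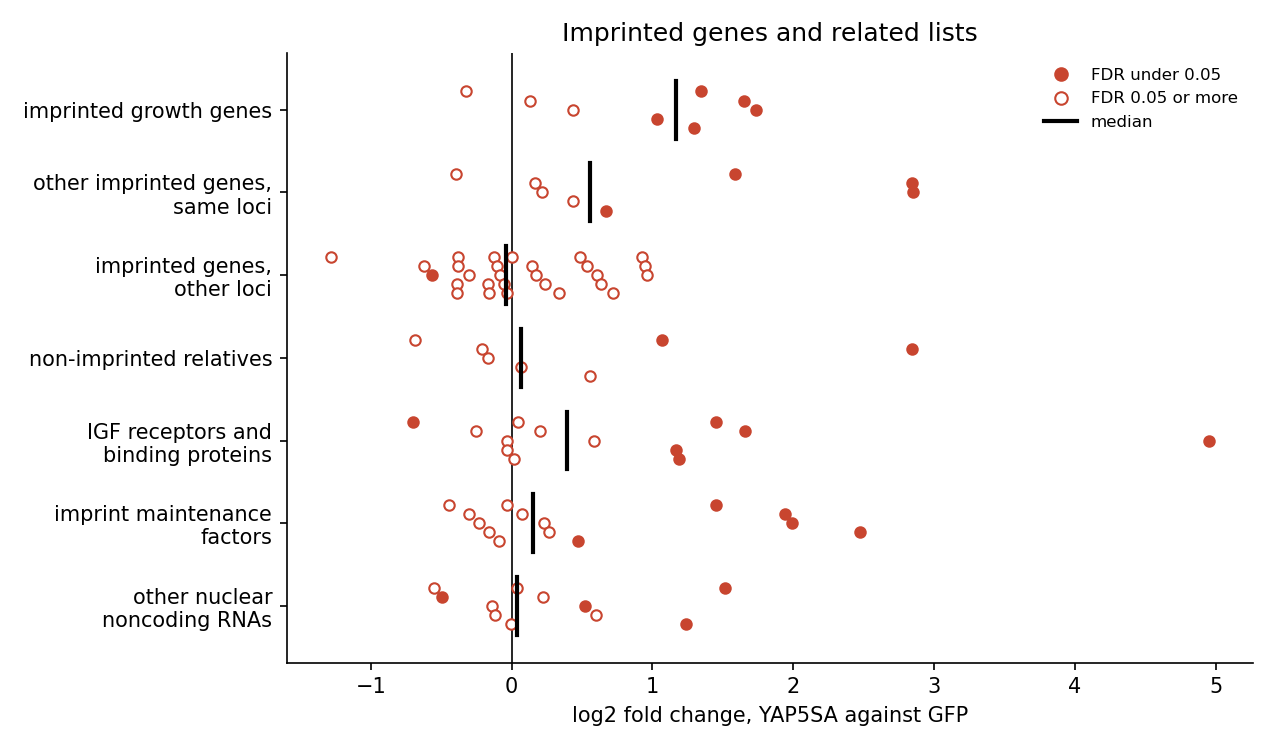
Log2 fold change in YAP5SA against GFP of each tested gene in 7 lists, the imprinted growth genes first, with filled points for an FDR under 0.05 and a bar at the list's median. The median is 1.17 for the imprinted growth genes and 0.55 for other genes listed as imprinted at their loci. For genes listed as imprinted at other loci it is -0.04. The members and lists were chosen with earlier results of these data known, so the medians describe the lists and are no test of them. Igfbp2, with 2 counts over both GFP libraries, is not drawn but is counted in its list's median.

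Among the relatives of the members that are not imprinted, 2 of 7 were higher in YAP5SA OE CMs than in GFP and 0 lower. Of all genes tested, 12.8% were higher and 9.18% lower. *Dlk2*, the paralog of *Dlk1*, went from 1.84 and 2.42 CPM in GFP, and 2.34 and 1.70 in YAP6SA, to 11.0 and 20.2 in YAP5SA (log2 2.84, standard error 0.40, edgeR FDR 0.00155). *Cdkn1a*, which encodes the cyclin-dependent kinase inhibitor p21 and is a relative of *Cdkn1c*, had 17 and 23.3 CPM in GFP, 25.5 and 26.4 in YAP6SA, and 39.9 and 43.7 in YAP5SA (log2 1.07, FDR 0.00511). *Igf1*, the other insulin-like growth factor, had 0.56 against GFP (FDR 0.0979) and 0.83 against YAP6SA (FDR 0.0347), a call that was lost without the batch term and in 3 of 4 fits with a library left out.

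The receptors, substrates and binding proteins through which IGFs act gave 6 higher and 1 lower of 14 tested (12.8% and 9.18% among all genes). Among the 12 that passed the filter in GFP as well, 4 were higher and 1 lower, with a median of 0.13. *Igf2bp1* was below the filter in GFP, and *Igfbp2* passed it through YAP5SA alone, the group where it was high. *Igf2bp1*, the fetal RNA-binding protein that binds the *Igf2* transcript, rose most among those with counts in every library, from 1.16 and 2.09 CPM in GFP and 1.48 and 3.33 in YAP6SA to 36.2 and 64.1 in YAP5SA (log2 4.95, standard error 0.27, edgeR FDR 1.77e-05). *Igfbp2*, a secreted binding protein, had 2 and 0 counts in GFP, 4 and 0 in YAP6SA, and 134 and 543 in YAP5SA, a ratio of 353 to GFP per library size (95% exact interval 97.3 to 2918, counting error alone). *Igfbp5* and *Igf1r*, the IGF1 receptor that *Grb10* binds, were higher by 1.45 and 1.19 (FDR 0.00111 and 0.00119). The *Igfbp5* call was lost without the batch term, as was that of *Igfbp7* (log2 1.165), also among the higher genes. *Insr*, the insulin receptor, was lower, at 357 and 270 CPM in YAP5SA against 534 and 479 in GFP (log2 -0.70, FDR 0.0147), and this call was lost without either GFP library. *Irs2*, the receptor substrate, was the gene of these lists that was called in both variants, with 20.5 and 13 CPM in GFP, 78.8 and 31.8 in YAP6SA and 61.7 and 42.7 in YAP5SA. Its log2 fold change was 1.64 in YAP6SA (edgeR FDR 0.0424) and 1.66 in YAP5SA (FDR 0.00105). The YAP6SA call was lost by limma-voom, without the batch term and in 3 of 4 fits with a library left out.

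Of the factors that keep imprints, 5 of 14 were higher in YAP5SA OE CMs than in GFP and 0 lower (12.8% and 9.18% among all genes). *Uhrf1* and *Dnmt1*, which copy DNA methylation at replication, had log2 fold changes of 2.48 (edgeR FDR 0.000207) and 1.45 (FDR 0.000677), and the chromatin remodeller *Hells* had 1.99 (FDR 0.000232). *Zfp57*, the zinc finger protein that binds methylated imprinting control regions, went from 28.6 and 23.6 CPM in GFP to 74.5 and 126 in YAP5SA (log2 1.94, FDR 0.00168), whereas its cofactor *Trim28* had 0.07 (FDR 0.759). *Ezh2*, a Polycomb methyltransferase, had 0.47 (FDR 0.0424), a call that was lost in 4 of 9 alternatives. With a library left out its log2 fold change was 0.40 to 0.56, and the call depended on which library it was. All 10 markers of cycling cells were also higher, with summed levels of 130 to 167 CPM in GFP, 160 to 173 in YAP6SA and 468 to 696 in YAP5SA. The part of cycling in the rise of these factors was not tested.

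Other poly-A nuclear noncoding RNAs served as a reference for *Meg3*, *Rian* and *Mirg*. Of 11 tested, 3 were higher in YAP5SA than in GFP (*Mir17hg*, *Snhg1* and *Pvt1*) and 1 lower (*Tug1*), with a median of 0.04. The shares among all genes were 12.8% and 9.18%. *Pvt1* passed the filter through YAP5SA alone, the group where it was high, and of the 9 RNAs that passed it in GFP 2 were higher and 1 lower. Without the batch term 1 was higher and 0 lower, and without GFP replicate 2 none was called. *Malat1* and *Neat1*, the abundant ones, had -0.14 (edgeR FDR 0.617) and -0.12 (FDR 0.779). The host gene *Mir17hg* had 1.24 (FDR 0.0184), and *Gas5*, a growth arrest RNA, had 0.60 (FDR 0.0892) against GFP and 0.99 (FDR 0.0187) against YAP6SA, where the call was lost in 3 of 4 fits with a library left out.

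Markers of other cell types were measured because several members are also expressed outside CMs. Their calls in YAP5SA against GFP are to be read against 12.8% of all genes called as higher and 9.18% as lower. The 9 fibroblast markers, of which 0 were called, summed to 875 to 1390 CPM in GFP, 1005 to 1815 in YAP6SA and 924 to 1520 in YAP5SA, with the higher value in batch 1 of each group. The 8 endothelial markers gave 479 to 612 CPM in GFP, 492 to 712 in YAP6SA and 494 to 631 in YAP5SA. Here too 0 were called and the higher value was in batch 1 of each group. The 5 epicardial markers summed to 31.8 to 41.0 CPM in GFP, 31.8 to 57.7 in YAP6SA and 126 to 189 in YAP5SA. Of these, *Wt1* (log2 3.17) and *Krt19*, which was below the filter in GFP, were called as higher. *Wt1* alone had a mean of 13.7 CPM in GFP and 124 in YAP5SA. *Upk3b* (log2 0.73), *Upk1b* (0.19) and *Msln* (0.03) were not called. Of 6 macrophage markers tested 2 were higher (58.7 to 80.5 CPM in GFP, 70.4 to 97.5 in YAP6SA and 82.2 to 131 in YAP5SA, over all 7), and of 6 mural markers 1 was higher and 1 lower. Of the skeletal muscle markers, the myosin genes *Myh1*, *Myh2* and *Myh8* were called as higher but passed the filter through YAP5SA alone, the group where they were high, 0 of the 2 that passed it in GFP were called, and *Myh4* and *Myod1* were at 0 in all libraries, and of 2 erythroid markers tested 0 were called. The 8 CM markers summed to 55760 to 74970 CPM in GFP, 51280 to 67790 in YAP6SA and 32040 to 44780 in YAP5SA, with 1 called, *Ryr2*, as lower. With a library left out, 0 to 6 CM markers were called, all as lower, and without GFP replicate 2 no macrophage marker and 1 epicardial marker, *Wt1*, was called. The part of the epicardial, macrophage and CM marker levels in the rise of the members was not tested.

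The genes whose pattern over the 6 libraries was nearest to each member's were found by the root mean square difference of log2 CPM, centred on each gene's mean, among 13322 genes. They included *Phldb2* (0.10) and *Pdia6* (0.12) for *Peg3*, and for *Plagl1* they were *Nectin3*, *Serpinh1* and *9930012K11Rik* (all 0.07). *Sfxn1*, *Atp13a3* and *2410006H16Rik* were nearest to *Meg3* (0.03 to 0.09), and *Anxa9*, *Lxn* and *Slc16a3* to *Rian* (0.13 to 0.15), while those of *Mirg* included *Klhdc7a* (0.22) and *Emp1* (0.25). For the members that were not called they were *Fam129a*, *Fli1* and *Ece1* for *H19*, *Dnajc27*, *Cenpb* and *Eva1b* for *Cdkn1c*, and *Psme4*, *Pcmtd1* and *Mrvi1* for *Grb10*. No member was among the 3 nearest of another. *Rian* and *Mirg* came closest, with *Rian* 16th nearest to *Mirg* and *Mirg* 78th nearest to *Rian* (0.28), and the member nearest to *Peg3* was *Plagl1*, at rank 192. For *Meg3* the nearest member was *Plagl1*, at rank 510, rather than *Rian*, and for *Grb10* it was *Cdkn1c*, at rank 8435.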

How the data were processed

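Nuclei bound by the PCM-1 antibody gave poly-A RNA for 6 libraries, 2 each for GFP, YAP6SA and YAP5SA. The labels give 2 hearts for each virus, and whether a library held more than 1 is not stated. The authors aligned the reads with STAR to mm10 with Ensembl GRCm38.94 and deposited raw counts per gene, with no normalization or filter. The STAR version and the counting tool are not given in the sources used here. Reads that were unmapped (3.03% to 3.63%), multimapping (2.90% to 4.19%), outside genes (9.43% to 9.84%) or ambiguous between genes (5.79% to 6.31%) were kept out of library sizes and tests. A gene at 0 counts could have up to 3 at this depth, which covers counting error alone.

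Gene names, exons and coordinates came from GENCODE M21 (GRCm38), which named 54495 of 54532 genes, and that annotation is later than the one used for counting. The members and gene lists were chosen with earlier results of these data known. Genes with a median log2 CPM over 1 in at least 1 group were kept, as in the methods of the study, which left 13323. Counts were fitted with edgeR 4.0.16 in R 4.3.3 (TMM scaling, quasi-likelihood test, terms for batch and group). The labels give each sample a batch, with the same number as its replicate, and this shared batch pairs the libraries, and same-batch deviations from the group means correlated at 0.368 (GFP and YAP6SA), 0.0985 (GFP and YAP5SA) and 0.175 (YAP6SA and YAP5SA) across genes. Standard errors are the log2 fold change divided by the root of the F statistic. Within-batch differences and pattern distances used log2 CPM with a prior count of 2. The fit was tested on simulated data. The alternatives were RLE or upper quartile scaling, no filter, at least 10 counts in every library, the likelihood ratio test, DESeq2 1.42.0, limma-voom (limma 3.58.1), no batch term, fits of the 4 libraries compared, and each library left out, where the lone library is assumed to vary like the others. With 2 libraries per group, the p-values set a group difference against a spread estimated from all 6 libraries after the batch term. That spread is drawn toward the spread of other genes and is not that of the 2 libraries of a group alone.

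All 10 members are named. From each other list, the genes named with values as called are among the 6 with the lowest joint FDR over the groups, with further genes named by role, and the neighbours are the tested genes within 500 kb. The 3 genes nearest in pattern to each tested member were named, except for some that are not reported here. *Mest*, *Ndn*, *Igf2r*, *Trim28*, *Insr*, *Malat1*, *Neat1*, *Rtl1*, *Dio3*, *Begain*, *Fignl1*, *Utrn*, *Zfp28*, *Tspan32* and *Trpm5* were named after their values were seen. Promoter and microRNA sequences are from RefSeq (GRCm38.p6).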

Additional observations from a re-analysis of the deposited data

How the results depend on the processing

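With 2 libraries per group, 1 library can move a call, and the cause of the changes below was not tested. The number of imprinted growth genes called in YAP6SA against GFP was 0 in all 9 alternatives and with each library left out. In YAP5SA against GFP it was 5 in 8 of 9 alternatives, 3 with no batch term (no replicate block), and 2 to 6 with a library left out. In YAP5SA against YAP6SA it was 3 to 5 in the alternatives and 1 to 5 with a library left out. The count of all genes called in YAP6SA against GFP, 6, became 145 with no filter, 82 by the likelihood ratio test, 55 by DESeq2, 0 without the replicate block and 276 with only the 4 libraries compared, and 6 to 12 with a library left out. For YAP5SA against GFP it ran from 738 to 4863 with a library left out (2931 with all), and for YAP5SA against YAP6SA (1956 with all) it was 1152 without the replicate block and 396 to 4160 with a library left out. Without the replicate block, genes called as lower in YAP5SA against GFP went from 1223 to 759.

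Of the log2 fold changes of the 8 members in 3 comparisons under the 9 alternatives, 209 kept direction and side of the threshold, 3 lost and 4 gained a call, and 0 changed sign. Signs changed with a library left out, for values that were not called. In YAP6SA against GFP the ranges were -0.28 to 0.41 for *Meg3*, -0.22 to 1.17 for *Mirg*, -0.26 to 0.58 for *H19*, -0.23 to 0.43 for *Cdkn1c*, -0.24 to 0.11 for *Peg3* and -0.47 to 0.20 for *Grb10*. In YAP5SA against GFP they were -0.14 to 0.40 for *H19* and -0.64 to 0.024 for *Grb10*. In YAP5SA against YAP6SA they were -0.45 to 0.38 for *H19*, -0.0045 to 0.66 for *Cdkn1c* and -0.42 to 0.076 for *Grb10*. *Mirg* in YAP5SA against YAP6SA gained a call with no filter (FDR 7.31e-06), the likelihood ratio test (FDR 0.0177), DESeq2 (FDR 0.0118) and only the 4 libraries compared (FDR 0.0271).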
